A study of Homo sapiens with 11 samples.

Results

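The clusters of ZFP36L2 binding in MOLM13 cells, set against the IgG control, are described here. MOLM13 is a human acute myeloid leukaemia line with monocytic features and an activating FLT3 mutation. The members are all clusters in the 2 deposited lists that compare a ZFP36L2 immunoprecipitate (IP) with the IgG library of the same replicate: 140287 clusters in replicate 1 and 182486 in replicate 2, or 322773 of the 619845 clusters over IgG in the series. The remaining 297072 belong to the leukaemia line THP1. The groups used were MOLM13 IP (2 libraries) against MOLM13 IgG (2), and THP1 IP (2) against THP1 IgG (2), all from untreated cells with no genetic change made. In enhanced crosslinking and immunoprecipitation (eCLIP), protein is fixed to RNA by light at 254 nm (here 400 mJ/cm2), precipitated, and its RNA recovered from a membrane between 30 and 105 kDa. Nothing in the labels ties the replicates to different cultures, and their spread may be technical.

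ZFP36L2 belongs to the TIS11 family of zinc finger proteins, with ZFP36 (tristetraprolin) and ZFP36L1. These proteins bind AU-rich elements, short runs built on UAUUUA that lie mostly in 3′ UTRs, and recruit the CCR4-NOT deadenylase, which shortens the poly(A) tail and leads to decay of the mRNA. In blood cells the family limits the output of cytokine, immediate early and cell cycle mRNAs. An IgG control shows which RNA is recovered without the specific antibody.

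A cluster was called enriched over IgG at a log2 fold of at least 3 together with a −log10 p of at least 3, both as the authors deposited them. This held for 7165 clusters in replicate 1 (5.11%) and 4551 in replicate 2 (2.49%). A cluster was reproducible when an enriched cluster of the other replicate covered 1 or more of its bases on its strand.

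The stretches below are shown because they carry the hexamer TATTTA, which reads UAUUUA in RNA, or, without it, come from other enriched clusters that could be read. No genome sequence was at hand, so sequence could be read only where a cluster lay inside a RefSeq promoter window of GRCh38.p14, which runs from 250 bases before to 50 bases after a gene start. The windows are often those of a neighbouring antisense or divergent gene. Each line runs 5′ to 3′ on the cluster's strand, is at most 30 bases long, and has TATTTA in capitals.
EIF1B, 5′ UTR, plus strand, chr3:40309823-40309852: ccagggcgaagcgttttctTATTTAtttcc
EIF1B, 5′ UTR, the next cluster, chr3:40309853-40309882: gttttctcgccactacagcctcctgacaag
PRC1, noncoding exon, minus strand, chr15:90966199-90966228: tatTATTTAttcttccgctgtctgcctgca
PRC1, 3′ UTR, the next cluster, chr15:90966234-90966263: acctatcctctcaatcactactcttcttga
TTBK2, 3′ UTR, minus strand, chr15:42739081-42739110: taaaagtgtaatTATTTAtttaattttccc
PPP1CB, 5′ UTR, plus strand, chr2:28751913-28751942: TATTTAttttccgtgggtgcctccgagtgt
CPSF3, 5′ UTR, plus strand, chr2:9423687-9423704: tttttTATTTAccggtgg
H2BC8, 5′ UTR, minus strand, chr6:26216661-26216690: tTATTTAagtgcgttcattctcactgctgt
H2BC7, coding sequence, plus strand, chr6:26199547-26199562: tgttTATTTAtcatgc
CEBPB, 3′ UTR, plus strand, chr20:50192241-50192264: ctatatttttgtccaaaccaaccg

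The stretch of H2BC7 comes from replicate 2 and the others from replicate 1. The CEBPB stretch and the second stretches of EIF1B and PRC1 lack the hexamer. TATTTA was present in 6 of the 9 enriched clusters that could be read in replicate 1 and in 5 of 8 in replicate 2. Among clusters that were not enriched, 27 of 997 in replicate 1 (2.71%) and 28 of 1113 in replicate 2 (2.52%) held it. The enriched clusters were also lower in GC, at 42.2% and 42.1% on average in replicates 1 and 2, against 67.6% and 67.1% in the others. With clusters of at most 50% GC alone, 4 of 6 enriched clusters held TATTTA in each replicate, against 21 of 127 (16.5%) in replicate 1 and 19 of 134 (14.2%) in replicate 2. Within that limit the enriched clusters were still lower in GC, at 32.7% and 33.5% in replicates 1 and 2, against 41.5% and 40.7%. The comparison is therefore not matched for GC. On the strand of the gene, 6.89% of the 34796 promoter windows hold TATTTA, and 12.7% hold it on either strand. These clusters are a small share of the lists and most promoters are GC-rich, so the counts describe only the clusters that could be read.

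The EIF1B cluster with the hexamer had 592 IP reads and 9 IgG reads in replicate 1, and its counterpart in replicate 2 had 1006 IP reads and 3 IgG reads. EIF1B encodes a homologue of the start-codon selection factor eIF1. The adjoining EIF1B cluster, which lacks TATTTA, was the stronger: 756 IP and 7 IgG reads in replicate 1 and 1134 IP and 3 IgG reads in replicate 2, log2 folds of 5.45 and 5.96. At PRC1, a regulator of cytokinesis, the cluster with the hexamer had 482 IP and 5 IgG reads in replicate 1 and 979 IP and 2 IgG reads in replicate 2. That cluster was listed as a noncoding exon in replicate 1 and as 3′ UTR in replicate 2. Of the clusters read, the stronger held TATTTA at PRC1 and lacked it at EIF1B, where it adjoined a cluster that held it. How often any cluster adjoins one with the hexamer was not counted.

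Read numbers could be given because the deposited values fix them. The log2 folds equal the log2 of IP reads over IgG reads plus 1 constant per list, and the deposited p equals Fisher's exact p where a read number is below 5 and a continuity-corrected chi-square p otherwise. Whole read numbers were recovered in this way in replicate 1 for 6998 of 7165 enriched clusters and in replicate 2 for 4476 of 4551. The others, 167 and 75 clusters, sit at the cap of 400 on the −log10 p. The largest relative error of the recomputed −log10 p was 0.000112 and 0.00145. The recovered IP numbers also gave a whole number of input reads, within 0.01, at 100% of the enriched clusters that the input tables list. An IgG number is never below 1, so an IgG count of 0 and of 1 cannot be told apart.

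The constants show that the 2 lists rest on unequal depths. At equal read numbers the log2 fold was −1.30 in replicate 1 and −2.60 in replicate 2, so the IP library was 2.46 times as deep as its IgG library in replicate 1 and 6.06 times in replicate 2. For a cluster with an IgG number of 1, the call needed 29 IP reads in replicate 1 and 66 in replicate 2. The corresponding numbers in THP1 were 54 and 35 reads, at depth ratios of 4.99 and 3.08. Below the cap on p, enriched clusters had a median of 89.5 IP reads in replicate 1, with a range from 29 to 1990, and a median of 182 in replicate 2, with a range from 66 to 3573. The clusters at the cap have no recovered read number and are left out of these values. An IgG number of 1 stood under 1877 recovered enriched clusters of replicate 1 (26.8%) and 1538 of replicate 2 (34.4%). Total depth per library is not stated in the labels or headers.

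**Figure D1:**
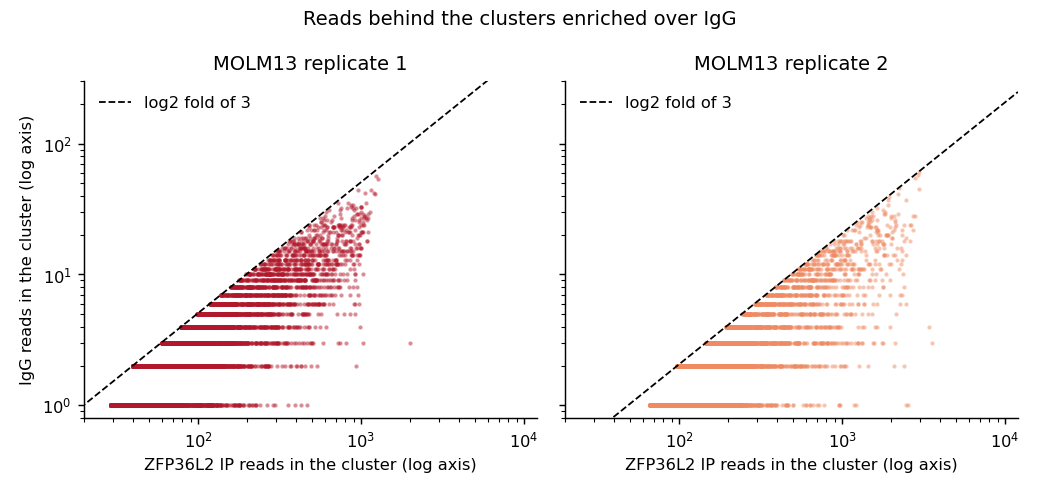
Reads of the ZFP36L2 IP (horizontal, log axis) and of IgG (vertical, log axis) in each enriched MOLM13 cluster below the cap on p, 1 panel per replicate; each point is a cluster and the dashed line marks a log2 fold of 3. The points start at 29 IP reads in replicate 1 and at 66 in replicate 2, and many lie on the bottom line of 1 IgG read.

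The plot of IP against IgG reads shows how far the calls reach into small IgG numbers. Of the enriched clusters below the cap, 71.0% in replicate 1 and 77.7% in replicate 2 had fewer than 5 IgG reads. The median log2 fold over all clusters was 0.28 in replicate 1, which is the value of 3 IP reads to 1 IgG read, and −0.60 in replicate 2, the value of 4 to 1. At the threshold itself the lowest folds called were 3.002 and 3.001 in replicates 1 and 2. Within 0.25 log2 units there were 1102 clusters just inside and 1216 just outside it in replicate 1, and 785 and 897 in replicate 2. Another 1618 and 1097 clusters reached the fold but not the p.

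Gene and region names come from the authors' input table of the same replicate, which lists only clusters enriched over input. Of the named clusters, 6476 of 14403 in replicate 1 (45.0%) and 4044 of 14396 in replicate 2 (28.1%) were also enriched over IgG. In 3′ UTRs 59.0% of named clusters passed in replicate 1 (95% Wilson interval 57.2 to 60.7) and 49.7% in replicate 2 (48.0 to 51.4). The small class near miRNAs had 5 of 9 and 3 of 5. In coding sequence (CDS) the shares were 50.8% and 40.0%. In distal introns, the largest class, 40.6% passed in replicate 1 (39.5 to 41.6) and 19.9% in replicate 2 (19.1 to 20.8). Proximal introns had 40.9% and 22.1%.

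The 3′ UTR was therefore ahead of introns in both replicates, and the gap was wider in replicate 2. The median log2 fold over IgG of 3′ UTR clusters was 3.38 and 3.16 in replicates 1 and 2, against 2.95 and 2.33 for distal introns. Of all named enriched clusters, 26.5% lay in 3′ UTRs in replicate 1 (25.4 to 27.5) and 40.3% in replicate 2 (38.8 to 41.8). Distal introns held 54.0% and 40.6%. Counting error alone is covered by these intervals, and touching clusters are not independent. Outside the input tables, 689 of 125884 clusters in replicate 1 (0.547%) and 507 of 168090 in replicate 2 (0.302%) were enriched over IgG.

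The 5′ UTR stood apart at the low end. Of its named clusters, 10 of 95 in replicate 1 (10.5%) and 19 of 89 in replicate 2 (21.3%) had fewer reads than IgG after scaling, although all were enriched over input. The shares below IgG in 3′ UTRs were 0.0344% and 0.305%, and over all named clusters 0.236% and 1.17%. The same regions' enriched shares were 43.2% and 29.2% in the 5′ UTR, close to those of all named clusters.

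**Figure D2:**
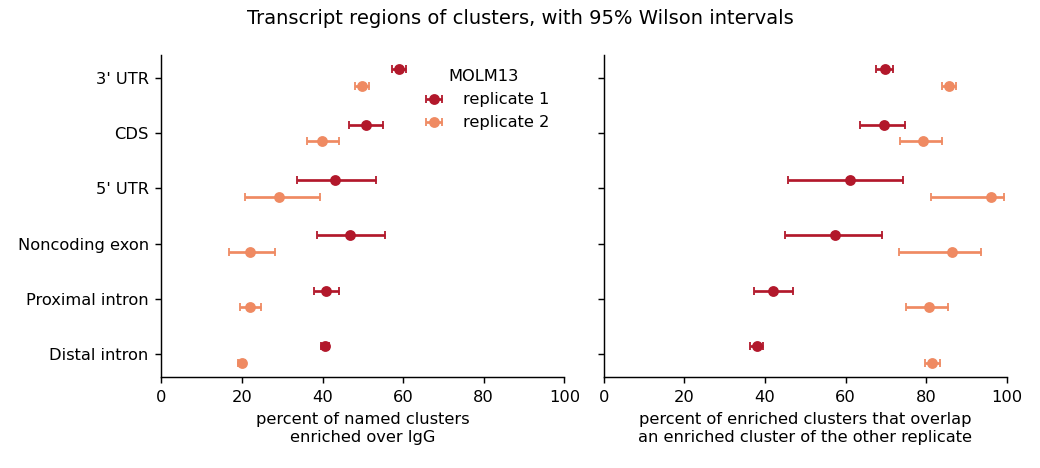
Left, percent of named MOLM13 clusters enriched over IgG, by transcript region; right, percent of enriched clusters that overlap an enriched cluster of the other replicate. Points are replicates and bars are 95% Wilson intervals; 3′ UTR and CDS lie furthest right for replicate 1 in both panels, with 59.0% and 50.8% enriched.

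Reproducibility differed more between regions in replicate 1 than in replicate 2, as the right panel of the plot by region shows. In replicate 1, 3385 of the 7165 enriched clusters (47.2%) met an enriched cluster of replicate 2. The same 3385 are 4.49% of the 75338 replicate 1 clusters that overlap any replicate 2 cluster. That share counts clusters enriched in both replicates and is not a background rate for the 47.2%. The share was 69.7% in 3′ UTRs (67.5 to 71.8) and 69.4% in CDS, against 38.0% in distal introns (36.4 to 39.6). In the other direction 3574 of 4551 clusters of replicate 2 (78.5%) were reproducible, with 85.8% in 3′ UTRs and 81.5% in distal introns.

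Few of the clusters that were not reproduced lacked a counterpart. Of the 3780 in replicate 1, 26 had no overlapping cluster in replicate 2, and 3754 had one that was not enriched. That counterpart had a log2 fold of 2 to 3 at 2277 of them, of 0 to 2 at 1181, below 0 at 12, and of at least 3 without the p at 284. Below the cap, reproduced clusters of replicate 1 had a median of 140 IP reads, against 61 in those not reproduced. Replicate 2 needs more reads to call a cluster, as given above, and the part of this in the difference between regions was not tested.

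**Figure D3:**
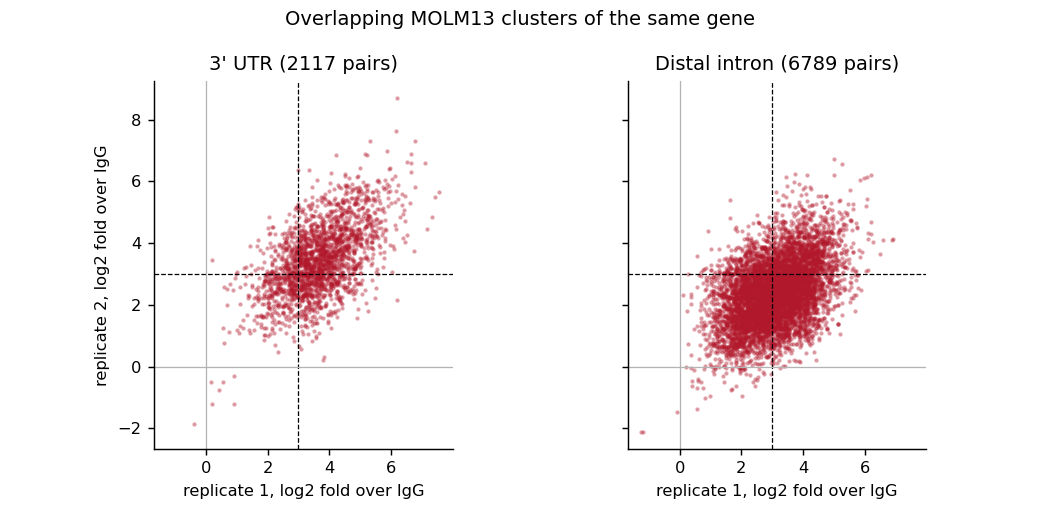
Log2 fold over IgG in MOLM13 replicate 1 (horizontal) and replicate 2 (vertical) of overlapping clusters of the same gene, both enriched over input, for 3′ UTRs (2117 pairs) and distal introns (6789 pairs). Dashed lines mark a log2 fold of 3; 3′ UTR pairs have medians of 3.64 and 3.38 and distal intron pairs medians of 3.09 and 2.40 in replicates 1 and 2.

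The plot of paired folds shows the distal intron pairs shifted below the threshold of replicate 2. Both folds reached 3 in 1169 of the 2117 3′ UTR pairs and 1384 of the 6789 distal intron pairs. Over reproducible pairs in any region the log2 folds of the replicates differed by 0.19 in the median (replicate 1 minus replicate 2), with an SD of 0.85.

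Reproducible clusters named 1661 genes, of which 744 had one in the 3′ UTR. Among the 12660 RefSeq genes with clusters in both replicates, 1611 were named in this way (12.7%). Such genes are termed called in the gene lists below. A gene whose reproducible clusters lack its name in either replicate's input table is not called. Touching clusters merge into 2176 regions, and 1300 of the 1661 genes had a single region, 274 had 2 and 87 had 3 or more. Genes with many regions were mostly bound in introns. PVT1, a long noncoding RNA next to MYC, had 9 regions, WWOX had 8 and DACH1 had 7, none in a 3′ UTR. FLT3, the receptor tyrosine kinase of early blood progenitors, had 6 intronic regions. In contrast, the 6 regions of UBE2W, a ubiquitin-conjugating enzyme, were carried by 14 clusters, 6 of them in the 3′ UTR. The counts of regions are not corrected for gene length.

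Among named reproducible clusters, the highest by the lower of the replicate folds lay in the coding sequence of NNT, the mitochondrial transhydrogenase that makes NADPH (ENSG00000112992.16, chr5:43700142-43700177). It had 1990 IP and 3 IgG reads in replicate 1 and 3573 IP and 3 IgG reads in replicate 2. Its log2 folds were 8.07 (exact 95% counting interval 6.52 to 10.4) and 7.62 (6.07 to 9.90). In THP1 the same place had 7.26 and 7.60. The IP reads of NNT were the highest recovered in either list.

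In 3′ UTRs the strongest genes included STING1, the adaptor of cytosolic DNA sensing (chr5:139476080-139476116). STING1 had 1022 IP and 3 IgG reads in replicate 1 and 1770 IP and 3 IgG reads in replicate 2, log2 folds of 7.11 and 6.61. PTPN3, a protein tyrosine phosphatase, had 806 IP and 3 IgG reads in replicate 1 and 955 IP and 1 IgG read in replicate 2, log2 folds of 6.77 and 7.30. The THP1 folds at PTPN3 were 1.14 and 2.38, below both MOLM13 values. An IgG number is never below 1, so a place with few IP reads cannot reach a high fold. The THP1 reads at PTPN3 are not given. TRIB1, a pseudokinase that targets C/EBPα for degradation, had 455 IP and 2 IgG reads in replicate 1 and 597 IP and 1 IgG read in replicate 2. These 3 genes lay far above IgG in each replicate, and for PTPN3 and TRIB1, whose IgG number in replicate 2 is 1 and may stand for 0, only the lower limits of the intervals there can be given (4.82 and 4.14).

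BCAT1, the cytosolic branched-chain aminotransferase, followed with log2 folds of 6.65 and 6.32. The death receptor TNFRSF10B had 6.11 and 6.18, and the lysosomal sulfatase ARSB 6.04 and 6.09. PIM1, a serine/threonine kinase induced by STAT5, had 5.88 and 5.92 at clusters with a p at the cap. The THP1 folds at PIM1 were 2.16 and 3.62. The other 3′ UTR genes among the 12 highest were SERINC3, MIEN1, REEP4, ATP6V0B and SLC25A11, whose lower replicate fold ranged from 5.70 to 5.90.

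In introns the highest fold was that of PAN3, a subunit of the poly(A) nuclease PAN2-PAN3, with 6.20 in each replicate at a distal intron (chr13:28249178-28249198). VAV1, a guanine nucleotide exchange factor of blood cells, had 712 IP and 5 IgG reads in replicate 1 and 809 IP and 2 IgG reads in replicate 2, log2 folds of 5.85 and 6.06. DACH1 had 5.54 and 5.72, and CLSPN, a mediator of the replication checkpoint, 6.07 and 5.44. The intronic clusters of PWAR5, DEPDC5, WWOX and MAFG completed the 8 highest, with lower replicate folds of 5.25 to 5.35. Intronic clusters thus reached folds close to those of the strongest 3′ UTRs, although a smaller share of them was called.

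In coding sequence, DHPS had log2 folds of 5.73 and 5.94, and ABCB10, a mitochondrial transporter of erythroid cells, 5.71 and 6.20. DHPS, which starts the hypusine modification of eIF5A, was assigned to CDS in replicate 1 and to a noncoding exon in replicate 2. In the 5′ UTR the highest were HRH2, a histamine receptor, at 6.15 and 5.23, and EIF1B. At splice sites NEURL4 had 5.94 and 5.41, MED13L 5.34 and 4.67, SBF2 4.99 and 4.47, COPS3 4.38 and 4.43, PHF12 4.36 and 4.32 and AC138409.2 3.22 and 4.55. Among noncoding exons RAB4B had 5.95 and 5.24, and the 2 clusters listed as near a miRNA, at MIR644A and FAM89A, had 5.56 and 5.13 and 4.34 and 3.69. FAM89A was listed as near a miRNA in replicate 1 and as 3′ UTR in replicate 2.

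**Figure D4:**
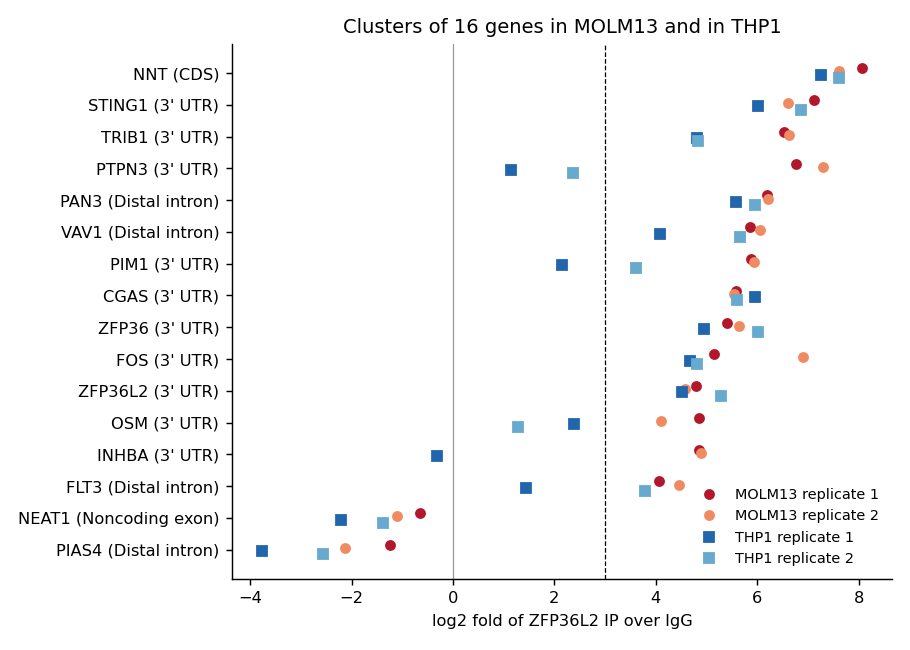
Log2 fold of the ZFP36L2 IP over IgG at 1 cluster of each of 16 genes, MOLM13 replicates as circles and THP1 replicates as squares, with the region of the cluster in brackets; the dashed line marks a log2 fold of 3. PTPN3 and OSM lie above 4 in both MOLM13 replicates and below 3 in both THP1 replicates, and NEAT1 and PIAS4 lie below 0 in all 4.

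The plot of single genes sets the MOLM13 clusters beside the THP1 clusters at the same place. The TIS11 mRNAs themselves were bound. ZFP36 had 839 IP and 8 IgG reads in replicate 1 and 1518 IP and 5 IgG reads in replicate 2 at its 3′ UTR (chr19:39409188-39409229), log2 folds of 5.41 and 5.65. ZFP36L2, the protein's own mRNA, had 612 IP and 9 IgG reads in replicate 1 and 1015 IP and 7 IgG reads in replicate 2 at its 3′ UTR (chr2:43223273-43223382), log2 folds of 4.79 and 4.58. ZFP36L1 had no reproducible cluster, with 2.95 and 2.04 at its best pair and −log10 p of 1.86 and 0.784. It had an enriched 3′ UTR cluster in replicate 1 alone, with 32 IP reads at an IgG number of 1 and a log2 fold of 3.70. In THP1 the ZFP36 cluster had 4.96 and 6.01 and the ZFP36L2 cluster 4.51 and 5.28, and ZFP36L1 was called, with highest folds of 4.49 and 4.70.

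Of 24 measured mRNAs that had been reported as targets of the family in other cells, 14 were called (58.3%, beside 12.7% of all genes). Each had a reproducible cluster in the 3′ UTR. MCL1 also had a reproducible cluster, with 3.51 and 3.63. It was not called because its replicate 1 cluster was not listed over input. The median of the list's best lower fold was 3.74, beside 1.49 over the 11663 genes with an overlapping pair of clusters. FOS, the AP-1 subunit, had 523 IP and 6 IgG reads in replicate 1 and 722 IP and 1 IgG read in replicate 2, log2 folds of 5.14 and 6.90. PLK3, a stress kinase, had 5.19 and 5.53, and PIM3 had 5.19 and 5.38. MYC had 3.84 and 4.43. Of the other members, 12 had no cluster in both replicates, among them the cytokines TNF, IL6, IL10, IL2 and CSF2.

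Among AP-1 and immediate early genes, 7 of 20 were called (35%, beside 12.7% of all genes), each with a cluster in the 3′ UTR. JUND had 5.16 and 5.44, and MAFK, a small MAF partner, had 122 IP and 2 IgG reads in replicate 1 and 168 IP and 1 IgG read in replicate 2, log2 folds of 4.63 and 4.79. FOSL2 had 4.28 and 5.28. Of JAK-STAT output and feedback genes, 5 of 27 were called (18.5%), not far from the 12.7% of all genes.

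CISH, the STAT5-induced inhibitor of cytokine receptors, had 5.03 and 5.68, against THP1 folds of 2.35 and 4.20. OSM, the interleukin-6 family cytokine oncostatin M, had 71 IP and 1 IgG read in replicate 1 and 104 IP and 1 IgG read in replicate 2, log2 folds of 4.85 and 4.10. The THP1 folds at OSM were 2.38 and 1.28, and OSM was the single called member of the 8 cytokines measured (12.5%), a share close to the 12.7% of all genes. At the receptor itself, FLT3 had 704 IP and 17 IgG reads in replicate 1 and 1067 IP and 8 IgG reads in replicate 2 at a distal intron, log2 folds of 4.07 and 4.46, against 1.43 and 3.78 in THP1. Fewer RNA copies in THP1 and a lower fold cannot be told apart here, and the difference between the lines was not tested.

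MAP kinase feedback genes were called at 3 of 17 (17.6%), beside 12.7% of all genes. They were TRIB1, the phosphatase DUSP2 (115 IP and 1 IgG read in replicate 1, 229 IP and 2 IgG reads in replicate 2) and NF1, the RAS GTPase activator, in a distal intron. In the TGF-beta and activin pathway, 5 of 23 were called (21.7%). INHBA, the activin A subunit, had 212 IP and 3 IgG reads in replicate 1 and 359 IP and 2 IgG reads in replicate 2, log2 folds of 4.84 and 4.89. In THP1 its counterpart was at −0.32 in replicate 1, where equal read numbers give −2.32, and had no overlapping cluster in replicate 2. The THP1 reads are not given, and few reads and a lower fold cannot be told apart there. The ligand TGFB1 had 3.78 and 3.72, the ubiquitin ligase SMURF1 3.71 and 3.78, and SMURF2 3.62 and 3.15.

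Of NF-kB and innate sensing genes, 8 of 30 were called (26.7%, beside 12.7% of all genes), each with a cluster in the 3′ UTR. CGAS, the DNA sensor upstream of STING1, had 356 IP and 3 IgG reads in replicate 1 and 562 IP and 2 IgG reads in replicate 2, log2 folds of 5.59 and 5.54. The NF-kB inhibitors TNFAIP3 and NFKBIA had 5.74 and 5.14, and 5.02 and 4.18. Sensor and adaptor of the DNA-sensing pathway were thus both bound in each replicate, and in THP1 the CGAS cluster had 5.96 and 5.60.

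Myeloid transcription factors were called at 7 of 24 (29.2%, beside 12.7% of all genes). IRF8, which directs monocyte fate, had 4.69 and 5.01, CEBPD 4.67 and 5.02, and ZEB2 3.94 and 5.25 at their 3′ UTRs. ELF1 was bound at a distal intron with 3.76 and 3.56. Of the HOXA programme and leukaemia chromatin regulators, 11 of 27 were called (40.7%). The H3K79 methyltransferase DOT1L had 4.84 and 4.09, and the HOX cofactors PBX3 and MEIS1 4.69 and 3.98, and 4.61 and 3.76, the last pair in introns. HOXA9 itself had 3.06 and 3.46 at its 3′ UTR.

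Cell cycle genes were called at 13 of 32 (40.6%, beside 12.7% of all genes), 11 of them in the 3′ UTR. Besides PLK3, the CDK inhibitor CDKN1A had 515 IP and 6 IgG reads in replicate 1 and 895 IP and 3 IgG reads in replicate 2, log2 folds of 5.12 and 5.62. CDK6 had 5.21 and 5.07, and CCND3 5.18 and 4.55. Positive and negative regulators of the G1 phase were both among the called genes. Apoptosis genes were called at 4 of 20 (20.0%, beside 12.7% of all genes): BCL2 (4.12 and 4.12), BIRC5 (3.89 and 3.84), PMAIP1 (3.91 and 3.76) and BCL2L11 (3.21 and 3.20). BCL2 and BIRC5 inhibit cell death, and PMAIP1 and BCL2L11 promote it. MCL1, also on this list, had the reproducible cluster given above but was not called, for want of a name over input.

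The machinery of mRNA decay was called at 12 of 37 (32.4%, beside 12.7% of all genes). Besides PAN3, the decapping enzyme DCP2 had 4.92 and 4.13, the CCR4-NOT deadenylase subunit CNOT6L 4.30 and 4.13, and AGO2 4.06 and 4.57. Other proteins that bind AU-rich or 3′ UTR elements were called at 10 of 27 (37.0%). CELF2 had 5.75 and 4.50 in a distal intron, RC3H2 (Roquin-2) 4.07 and 4.32, ELAVL1 (HuR) 4.00 and 4.19 and MSI2 3.62 and 4.71. Hypoxia and metabolism genes were called at 8 of 29 (27.6%). SLC7A5, an amino acid transporter, had 5.07 and 5.15, VEGFA 5.54 and 4.77 and the sterol sensor INSIG1 4.48 and 5.34.

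The ribosomal and histone lists had called shares below the 12.7% of all genes, in counts that depend on names over input. Of 25 ribosomal protein and translation factor genes, 1 was called (4.0%), the elongation factor EEF2, with 5.59 and 5.67. EIF4A1, also on this list, had a reproducible cluster with 4.85 and 4.40. It was not called because neither replicate's cluster was listed over input. The histone list had 0 of 15 called, with a median best lower fold of 0.06 and H2BC5 enriched in replicate 2 alone (3.38). The list does not hold H2BC7 and H2BC8, whose sequences are given above and which were enriched in both replicates. H2BC8 had 326 IP and 10 IgG reads in replicate 1 and 457 IP and 4 IgG reads in replicate 2, log2 folds of 3.73 and 4.24. H2BC7 had 4.39 in replicate 1 and 4.51 at its highest cluster in replicate 2. Histone genes have near-identical copies, so the assignment of these reads to 1 gene is uncertain. Of 14 nuclear long noncoding RNAs, 4 were called (28.6%): PVT1 (5.06 and 4.04), NORAD (3.91 and 5.27), OIP5-AS1 (4.08 and 3.76) and FTX (3.98 and 3.37). MALAT1 had 1.77 and 1.59 at its best pair, below the threshold although its −log10 p was 400 and 82.7.

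The lists also differed in how many clusters a gene had to be called on. The median number of clusters per measured gene was 17 for the HOXA and chromatin list, 16 for mRNA decay, 26 for the AU-rich binding proteins and 1 for cytokines, beside 6 over all genes. The part of these numbers in the counts was not tested.

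Markers were used to check the labelled line only as far as bound RNA allows. Of 20 myeloid markers 9 had clusters in both replicates and FLT3 alone was called (11.1% of the 9, beside 12.7% of all genes). Of 21 lymphoid markers 2 had clusters and none was called. Of 20 erythroid and megakaryocytic markers 2 had clusters, with the transferrin receptor TFRC called (4.75 and 4.99). The called shares therefore do not mark the line. The share of genes in general with clusters in both replicates was not counted. The monocyte markers CD14, ITGAM, CSF1R and S100A8 had no cluster in both replicates. CD33 had 3.56 and 2.01 at its best pair.

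Small structural RNAs lay on the IgG side. H/ACA box snoRNAs, which guide pseudouridylation, had 246 clusters in replicate 1 with a median log2 fold of −2.16, 245 of them below 0, and 244 clusters in replicate 2 with a median of −2.79, 242 below 0. C/D box snoRNAs, which guide ribose methylation, had medians of −1.42 and −2.002 over 244 and 243 clusters. Ribosomal RNA had −1.82 and −1.67, RNase P and MRP RNA −1.88 and −2.28, and tRNA −1.09 and −1.70. None of these classes had an enriched cluster in either replicate, beside 5.11% and 2.49% of all clusters. These values are set by the scaling of each list, whose medians were 0.28 and −0.60.

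**Figure D5:**
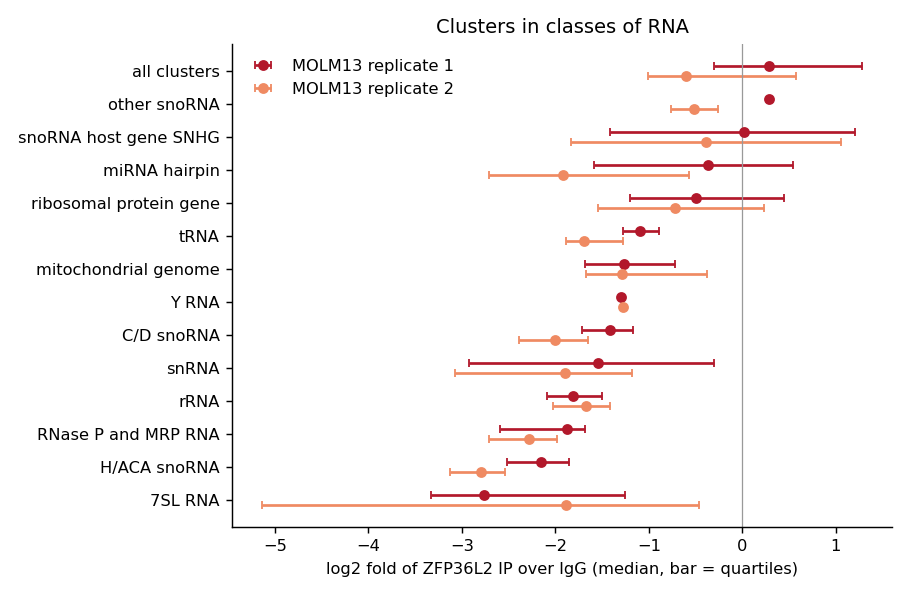
Median log2 fold of the ZFP36L2 IP over IgG (horizontal; bars are quartiles) of clusters lying in each class of RNA, for MOLM13 replicates 1 and 2, assigned by RefSeq coordinates. H/ACA snoRNAs have medians of −2.16 and −2.79, and all clusters together 0.28 and −0.60.

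The plot of RNA classes also includes the mitochondrial genome, with medians of −1.26 and −1.29, and genes of ribosomal proteins, with −0.49 and −0.72. Log2 folds at or below −3 were found at 83 clusters of replicate 1 (0.0592%) and 766 of replicate 2 (0.420%). Of these, 24 in replicate 1 (28.9%) and 128 in replicate 2 (16.7%) lay in small structural RNAs, which held 0.480% and 0.386% of all clusters. In replicate 1, 54 of the 83 overlapped a cluster at or below −3 in replicate 2. Among them were clusters in the 45S ribosomal RNA gene RNA45SN2 (−3.99 and −5.38), RPPH1, the RNase P RNA (−3.09 and −3.46), SNORA9 (−3.30 and −3.27) and SNORA30 (−3.11 and −3.34). The RefSeq gene table gives no strand, so gene strands were taken from the RefSeq promoter windows. For a gene without a single strand there, a cluster inside it may come from its other strand.

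Enrichment over input did not always mean enrichment over IgG. Of 11021 overlapping pairs of clusters of the same gene that were enriched over input in both replicates, 2901 (26.3%) were enriched over IgG in both, and 18 (0.163%), in 14 genes, were below 0 in both. The lowest was a distal intron cluster of PIAS4, a SUMO ligase, with log2 folds over IgG of −1.25 and −2.12, against 3.44 and 3.76 over input. NES, the intermediate filament protein nestin, had −0.93 and −1.08 in CDS, and EHBP1 −0.78 and −1.71 in the 5′ UTR. NEAT1, the scaffold RNA of paraspeckles, had −0.65 and −1.10 in its exon. VGF, SOX5, ARHGAP5 and CRIM1 completed the 8 lowest. The THP1 folds at these 8 places were below 0 in both replicates as well, from −3.77 to −1.39.

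The reverse was also found. At 100 reproducible clusters, in 94 genes, neither replicate's cluster was listed over input. The strongest was in EIF4A1, the cap-dependent RNA helicase, with 642 IP and 9 IgG reads in replicate 1 and 895 IP and 7 IgG reads in replicate 2 (chr17:7578867-7578995). SOX4, a transcription factor of progenitors, had 50 IP and 1 IgG read in replicate 1 and 88 IP and 1 IgG read in replicate 2. Of the 94 genes, 40 also had a reproducible named cluster elsewhere.

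Some pairs differed widely between replicates. E2F1 had 181 IP and 1 IgG read in replicate 1 and 244 IP and 9 IgG reads in replicate 2 at one 3′ UTR cluster, log2 folds of 6.20 and 2.16. HMGA1 had 153 IP and 12 IgG reads in replicate 1 and 633 IP and 1 IgG read in replicate 2, log2 folds of 2.37 and 6.71. AFF4 had 53 IP and 1 IgG read in replicate 1 and 49 IP and 7 IgG reads in replicate 2. In each of these pairs the higher fold stood on an IgG number of 1. FOCAD and NCOA3 were likewise higher in replicate 1, by 4.14 and 3.94 on the log2 scale, and SNX3, PACS1 and PLEKHB2 higher in replicate 2, all with an IgG number of 1 on the high side.

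Most reproducible clusters had an enriched counterpart in THP1. Of 3385, 2337 (69.0%) overlapped clusters enriched in both THP1 replicates, 596 in one and 452 in neither, and 35 had no THP1 cluster at all. The same share over all MOLM13 clusters was not counted, so no background rate stands beside the 69.0%. The share enriched in both was 70.3% in 3′ UTRs and 73.9% in distal introns, with overlapping Wilson intervals (67.6 to 72.8 and 71.4 to 76.2). By gene, 1293 were named in both lines, which is 77.8% of the 1661 MOLM13 genes and 43.1% of the 2998 THP1 genes. Of the 12660 genes with clusters in both MOLM13 replicates, 2786 were named in THP1. Among the 1611 of them named in MOLM13, 1269 were. In THP1, 8786 clusters of replicate 1 (5.74%) and 12038 of replicate 2 (8.36%) were enriched, so the THP1 lists are longer. With 2 replicates per line, a difference between lines was not tested.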

How the data were processed

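ZFP36L2 IP and IgG eCLIP libraries of MOLM13 (2 each) were analysed, with THP1 beside them; groups and replicates follow the labels. Tools named in the submitters' processing notes are Picard 2.6.0, STAR 2.5.0c, cutadapt 1.14 and, with no version, edgeR; builds are hg19, GRCh37 and hg38. No source used here names the peak caller. The authors deposited, for every cluster of each IP, a log2 fold over IgG and a −log10 p, capped at 400 and 0 below the control; clusters were called per sample. Names come from the deposited input tables (log2 fold and −log10 p of at least 3), by identical coordinates; 98.8% of named clusters that RefSeq knows lay inside the GRCh38.p14 gene of that name, so coordinates are hg38. The THP1 lists carry other replicate numbers and were tied to replicates in the same way.

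Overlaps used bedtools 2.31.1; other steps used Python 3.11.15, pandas 2.3.3, numpy 2.4.6 and scipy 1.17.1. The commonest fold of a list was taken as 3 IP reads to 1 IgG read, which fixes its constant; read numbers were then those that give both fold and p. Tested on simulated data, the step recovered 582 of 582 and 585 of 585 pairs for replicates 1 and 2. The simulation also made 3 to 1 the commonest pair and used the same rule for p. It therefore checks the arithmetic of the step and not these assumptions. Intervals are 95% and cover counting error only; reads without molecular identifiers are not independent molecules. No p of any new test was computed; the p used is the authors'.

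Named genes follow a rule of rank: by the lower replicate fold over IgG at reproducible clusters, the 12 highest in 3′ UTRs, 8 in introns, 4 in CDS, 2 in each other region and up to 4 in each of 23 gene lists; the 8 lowest over IgG among pairs enriched over input; the 4 largest replicate differences per direction; and the TIS11 family. Further genes (MYC, HOXA9, MALAT1, CD33, UBE2W and the RNA genes, genes absent from the input tables, and those with sequence) were chosen after their values were seen. Some items that the rule names are not reported here. Clusters, lists and thresholds were chosen with earlier results of these data known. Of 5464 gene names, 5064 matched RefSeq, 139 as older symbols. The mitochondrial list could not be matched by symbol and is given by chromosome. Alternatives were other thresholds, centring, a width minimum, merged or reciprocal overlap, other gene assignment and single replicates.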

Additional observations from a re-analysis of the deposited data

Results flagged for a closer look

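EFNA5 and NCALD were singled out because clusters above IgG in both MOLM13 replicates had THP1 counterparts with log2 folds below 0 in both. This difference was not tested, and the genes were chosen after their values were seen. At a distal intron of EFNA5 (chr5:107556673-107556759), an ephrin ligand, the log2 folds were 3.75 and 3.98 in MOLM13, against −2.32 and −0.30 in THP1. MOLM13 had 232 IP and 7 IgG reads in replicate 1 and 382 IP and 4 IgG reads in replicate 2. At a distal intron of NCALD, a neuronal calcium sensor, 2 touching clusters had 3.77 and 4.49, and 4.00 and 4.89, in MOLM13, against −1.74 and −0.89 in THP1 for both. These were 3 of 3385 reproducible MOLM13 clusters. In THP1, equal read numbers give log2 folds of −2.32 in replicate 1 and −1.62 in replicate 2. None of the THP1 folds given here is lower, so they lie below 0 only after scaling for depth. The THP1 reads are not given, and few reads and a lower fold cannot be told apart there.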

How the results depend on the processing

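No paired analysis was possible because no test compares the groups and each deposited list already sets 1 IP against the IgG library of its own replicate. The numbers of enriched clusters depend most on the fold. At a log2 fold of at least 2, replicate 1 had 10427 enriched clusters, within 1.5 times of its count at 3, while replicate 2 had 7525, reproducible clusters numbered 6679, genes 2540, and 3′ UTR shares were 23.7% and 32.4%. At a log2 fold of at least 4 the numbers were 2720 and 1613 enriched clusters, 903 reproducible clusters, 523 genes and 3′ UTR shares of 32.2% and 52.3%. Centring each list on its median turned the order of the replicates' counts to 5889 and 6595 and moved the 3′ UTR share of replicate 2 to 34.7%. It also moved the clusters at or below −3 to 178 and 101. At −2 these were 1242 and 11816, and with clusters of at least 20 bases 39 remained in replicate 1. Adding 1 read to each IgG number, an alternative chosen after seeing the data, left 2758 enriched clusters in replicate 2, 2147 reproducible clusters and 3′ UTR shares of 28.3% and 44.1%; 1112 of the 1661 genes kept their call. Single replicates gave 4551 to 7165 clusters and 2040 to 3073 genes in place of the reproducible ones; leaving out replicate 2 moved both by over 1.5 times. The 3′ UTR share was higher in replicate 2 than in replicate 1 under each alternative run on it. The cause of these moves was not tested. A −log10 p of at least 5, merged regions, reciprocal overlap and RefSeq assignment left each value they were run on within 1.5 times or inside its interval. An IgG number of 1 limits the precision of 26.8% and 34.4% of the recovered calls.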

Other observations

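Clusters were spread unevenly over chromosomes in the 2 lines. Chromosome 8 held 6.50% and 6.23% of MOLM13 clusters, against 4.66% and 4.65% of THP1 clusters. Chromosome 13 held 3.13% and 3.06% in MOLM13, against 2.12% and 2.11% in THP1, and chromosome 1 held 8.45% and 8.43% in MOLM13, against 10.7% in each THP1 list. Of the MOLM13 clusters on chromosome 8, 5.47% and 3.56% were enriched over IgG, beside 5.11% and 2.49% of all clusters. Chromosome copy number was not measured.

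Clusters that touch a miRNA hairpin numbered 61 in replicate 1, at 48 hairpins, and 76 in replicate 2, at 57 hairpins. None was enriched over IgG, beside 5.11% and 2.49% of all clusters. Their median log2 folds were −0.49 and −1.33, beside 0.28 and −0.60 over all clusters.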
